A study of Mus musculus with 9 samples.

Results

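Expression of 10 genes of the platelet and megakaryocyte programme was described in sorted haematopoietic stem cells of the long-term repopulating class (LT-HSCs). The genes were taken by symbol from a count table of 21939 genes: Vwf, Itga2b, Gp9, Gp6, Gp1bb, Pf4, Gata1, Nfe2, Fli1 and Rab27b. All 10 were present in the table. The cells came from the bone marrow of C57BL/6 mice and were sorted without lineage antigens, with Sca1 and cKit, and without CD34 and Flt3. There were 3 groups of 3 libraries: young mice aged 10 to 16 weeks, aged mice over 80 weeks old, and aged cells given the RhoA inhibitor Rhosin at 100 µM (aged+Ri). Every group, controls included, spent 16 h at 37 °C in a balanced salt solution containing 10% serum, under 3% oxygen and 5% carbon dioxide, before RNA was taken. No group therefore shows freshly sorted cells, and the labels do not state whether a vehicle was added to the controls. The comparison of aged with young cells addresses age, with a limit from a Y-linked gene given below. That of aged+Ri with aged cells addresses the inhibitor.

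Some LT-HSCs are biased toward the megakaryocyte lineage and already carry transcripts of platelet genes, and expression of Vwf has been used to mark them in mice. This bias is known to become more frequent in old bone marrow. In megakaryocytes the transcription factors GATA1, NF-E2 and FLI1 activate genes for surface receptors, granule proteins and the machinery that releases granules. RhoA is a small GTPase of the actin cytoskeleton that also acts in the release of platelets from megakaryocytes.

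Stretches upstream of the start of transcription are shown for Gp9, Pf4 and Gp6, whose levels are described below, because GATA and ETS factors (FLI1 is one) bind such regions in megakaryocytes. Promoter sequences were available from RefSeq (GRCm38.p6) for 6 of the 10 genes. The 250 bases before the start are printed 5′ to 3′ on the gene's strand, with every match to a searched motif in capitals: chr6:87777820-87778069 (plus strand) for Gp9, chr5:90772185-90772434 (plus strand) for Pf4 and chr7:4397745-4397994 (minus strand) for Gp6.
Gp9: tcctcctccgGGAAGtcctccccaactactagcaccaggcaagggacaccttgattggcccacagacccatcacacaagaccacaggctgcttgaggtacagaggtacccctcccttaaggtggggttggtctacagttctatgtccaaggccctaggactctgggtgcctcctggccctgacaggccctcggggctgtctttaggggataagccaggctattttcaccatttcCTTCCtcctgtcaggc
Pf4: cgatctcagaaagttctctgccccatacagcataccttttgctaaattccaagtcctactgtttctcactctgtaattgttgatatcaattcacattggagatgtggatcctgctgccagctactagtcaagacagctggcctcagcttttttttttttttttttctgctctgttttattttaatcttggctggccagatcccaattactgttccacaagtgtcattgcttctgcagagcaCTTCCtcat
Gp6: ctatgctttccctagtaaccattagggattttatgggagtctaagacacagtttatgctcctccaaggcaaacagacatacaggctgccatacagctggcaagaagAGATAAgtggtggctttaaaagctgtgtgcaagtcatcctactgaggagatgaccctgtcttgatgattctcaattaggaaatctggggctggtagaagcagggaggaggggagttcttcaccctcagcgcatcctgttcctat
Both strands were searched, so a match on the other strand shows in capitals as its reverse complement, and no match overlapped another. GATA factors were searched with AGATAA, a single form of their motif, and other forms were not searched. For ETS factors the search used GGAAG. The motif shared by NF-E2 and AP-1 was TGAGTCA. Gp9 held GGAAG from -240 to -236 and, on the reverse strand, from -16 to -12, counted from the start of transcription. Pf4 held it once, on the reverse strand from -9 to -5. Gp6 held no GGAAG and the AGATAA at -144 to -139. GGAAG was also found in the windows of Itga2b (4 matches), Gp1bb (2) and Gata1 (1), and TGAGTCA in none of the 6. In the Itga2b window 180 of the 250 bases lie in annotated exons of Itga2b itself. All 250 bases of the Gp1bb window lie in exons of its neighbour Septin5. Among 32851 RefSeq promoter windows of this length, 64.1% held GGAAG, 9.99% AGATAA and 4.46% TGAGTCA. A match is a run of letters, and binding was not measured.

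**Figure D1:**
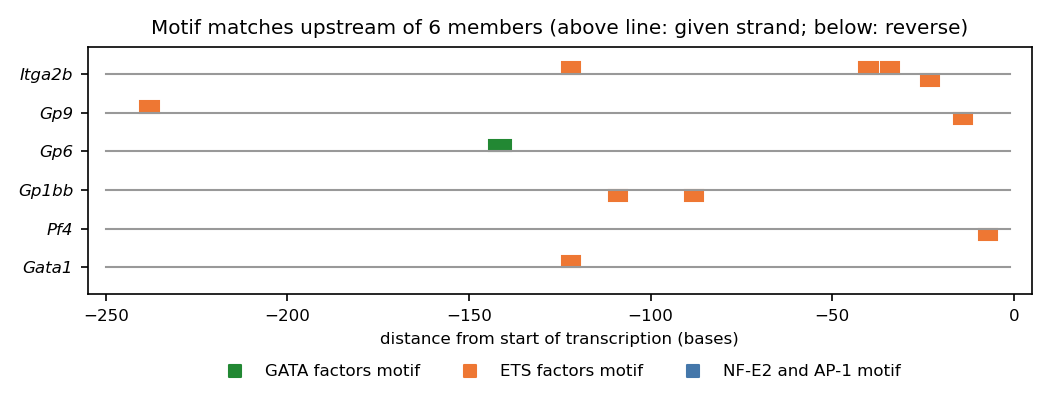
Positions of motif matches in the 250 bases upstream of 6 genes, by distance from the start of transcription in bases; boxes above a line lie on the gene's strand and boxes below it on the other strand. GGAAG, the ETS motif, occurs in 5 of the 6 windows, AGATAA in that of Gp6, and the NF-E2 and AP-1 motif has no box. The windows of Itga2b and Gp1bb lie partly or wholly in annotated exons.

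Library totals were between 34358101 and 72503142 counts, so that 3 counts, the limit that a count of 0 allows, stood for 0.0414 to 0.0873 CPM (counts scaled to library size). Young libraries detected more genes (20308 to 21272) than aged (15333 to 18288) and aged+Ri libraries (15387 to 16697). Libraries of 2 groups stood apart in markers of other cells. Young 1 had 13368 normalised CPM of the immunoglobulin gene Iglc2, against at most 197 elsewhere. Summed myeloid markers reached 10506 CPM in aged 3, against at most 3768 elsewhere. The Y-linked gene Ddx3y had 2577 and 6401 counts in young 2 and young 3 and at most 1 in the other libraries. By this gene male cells were present in young 2 and young 3 and in no aged library. Kdm5d, also Y-linked, had 869 and 968 counts in young 2 and young 3, 58 in aged+Ri 1 and at most 2.5 elsewhere. Age and sex therefore cannot be fully told apart in aged against young cells. Nor can age, inhibitor and sex be told apart in aged+Ri against young cells. Of the genes that the gate selects on, the cKit gene Kit stood at 87.3 CPM or more in all libraries, while Flt3, selected against, reached 21.9 CPM in young 3. Cd34, also selected against, reached 95.7 CPM in young, 72.0 in aged and 34.3 in aged+Ri libraries. In bulk libraries fewer cells of a type and less RNA per cell cannot be told apart. The libraries are labelled biological replicates with no number of mice, so a p-value measures the spread between these samples only.

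Levels between genes were compared per kilobase of exon. Pf4, the platelet chemokine gene, had the highest mean in every group: 214 ± 105 CPM per kilobase in young, 418 ± 296 in aged and 77.5 ± 70.3 in aged+Ri cells (SD, n = 3 each). Nfe2 followed at 73.9, 75.6 and 69.2 CPM per kilobase, and Fli1 at 35.5, 35.9 and 17.6. The ranges of Pf4 and Nfe2 overlapped in aged and aged+Ri libraries, as did those of Nfe2 and Fli1 in young libraries. Gata1, Rab27b, Itga2b, Vwf and Gp9 came next in young cells, between 0.591 and 7.90 CPM per kilobase, and all but the pair of Rab27b and Itga2b overlapped their neighbour in that order. Vwf ranked 7 of 10 in young, 4 in aged and 5 in aged+Ri cells. Gp6 and Gp1bb had means of at most 0.315 CPM per kilobase in every group. The set thus spanned abundant chemokine and transcription factor transcripts and receptor transcripts with few counts.

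**Figure D2:**
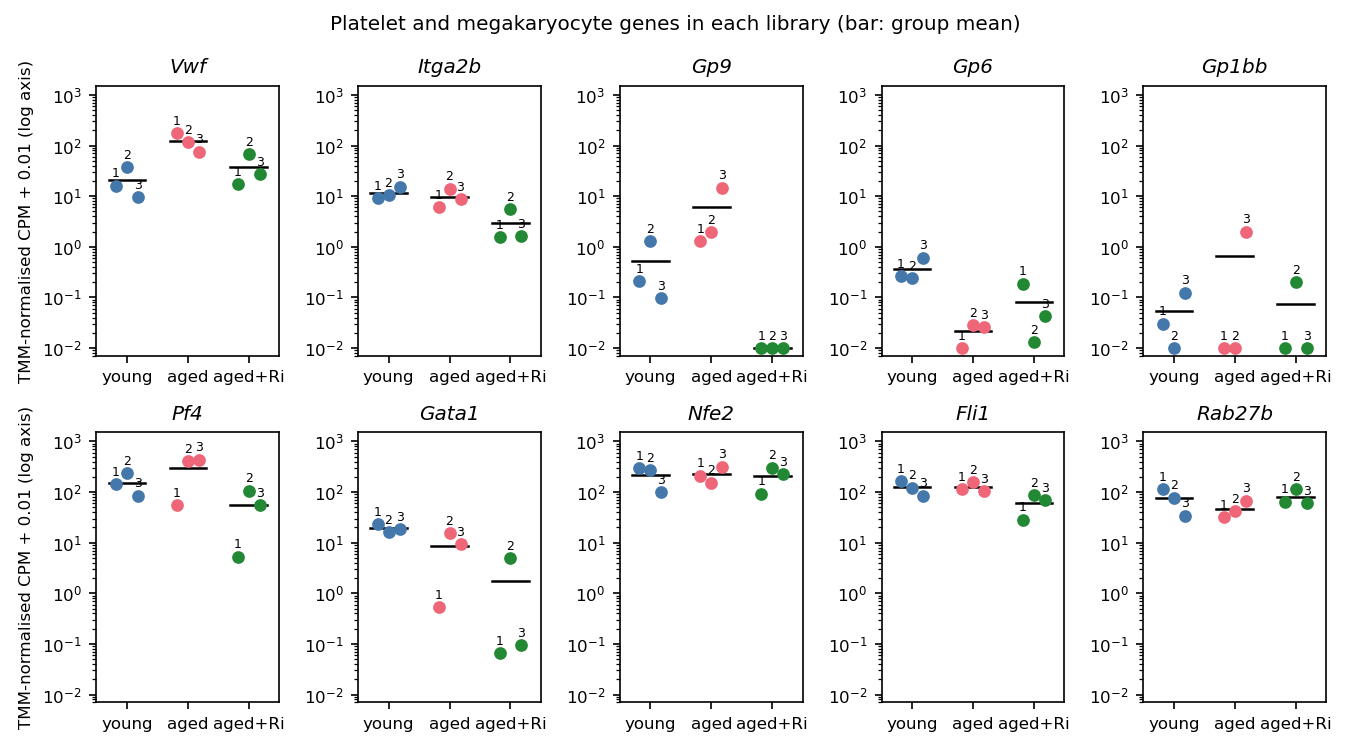
Normalised CPM of the 10 genes in each library on a log axis, with 0.01 added so that 0 can be drawn; points are libraries with their replicate number and bars are group means (n = 3). Aged libraries lie above young ones for Vwf, Gp9 is at 0 in every aged+Ri library, and Gata1 differs widely between libraries of a group.

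Between aged and young cells, Vwf was the only one of the 10 genes that was higher in every aged library than in every young one, with a mean 5.83 times that of young cells. Gp6 and Gata1 were lower in every aged library than in every young one. Nfe2 and Fli1 had nearly equal means in both groups. None of the 9 genes tested passed edgeR's quasi-likelihood test after Benjamini-Hochberg adjustment over 15127 genes, where 0.0331% of all genes did. At an unadjusted p under 0.05, 1 of the 9 was higher (Vwf) and 1 was lower (Gp6), against 6.09% and 10.1% of all genes. Groups did not overlap for 1 higher and 2 lower genes, against 8.59% and 16.1% of all genes. DESeq2 called 1 of 8 (Vwf) and 5.35% of all genes, and limma-voom called 0 of 9 and 0.119%. The log2 change was above 0 for 5 of the 9 (45.3% of all genes) and below 0 for 4 (54.7%), with a median of 0.01 over the 9 genes and -0.13 over all genes. Gp1bb had too few counts to be tested.

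Among the adhesion genes, Vwf encodes von Willebrand factor, which tethers platelets to the injured vessel wall, and lies on chromosome 6 at 125546774 to 125686679 (GRCm38, plus strand). It was at 16.0, 37.6 and 9.52 normalised CPM in young libraries and at 177, 116 and 75.3 in aged libraries. The lowest aged library stood above the highest young one. This gave a log2 change of 2.54 ± 0.59 (SE; 95% interval 1.27 to 3.82; edgeR adjusted p = 0.173). It was 2.27 without young 1 and 2.76 without aged 3, the libraries that stood apart, 3.33 without young 2, and within sequencing batches 1.62 (batch 2) and 2.98 (batch 3). Each batch value set 1 young library with male cells by Ddx3y against 1 aged library without them. DESeq2 gave the change an adjusted p = 0.00787, within a range of 0.00787 to 0.328 over the alternatives. Itga2b encodes the alpha chain of the platelet fibrinogen receptor (chromosome 11, 102453297 to 102470122, minus strand). Its young libraries had 9.09, 10.4 and 15.5 CPM and its aged libraries 6.09, 14.2 and 8.70, which overlap. Its log2 change was -0.27 ± 0.86 (SE; edgeR adjusted p = 0.913).

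Gp9 and Gp1bb encode subunits of the receptor that binds von Willebrand factor, and Gp6 encodes the platelet collagen receptor. Gp9 (chromosome 6, 87778072 to 87779768) was at 0.202, 1.28 and 0.0855 CPM in young libraries and at 1.27, 1.93 and 14.8 in aged libraries. Aged 3 carried 929 of the 1129 aged counts, and aged 1 lay just under young 2. The log2 change of Gp9 was 3.52 ± 1.55 (SE; edgeR adjusted p = 0.332), and 1.57 without aged 3. It was 0.58 within batch 2 and 6.88 within batch 3. Gp6 (chromosome 7, 4363965 to 4397744) had 42 counts in young and 2 in aged libraries after rounding, and young cells were 32.5 times higher once scaled for library size (95% counting interval 8.45 to 277; edgeR adjusted p = 0.2203). Every young library had more Gp6 than every aged one, at 0.2296 to 0.599 against at most 0.0181 CPM. Gp1bb (chromosome 16, 18620317 to 18622403) was found almost only in aged 3, with 124 counts, and had 5 counts in the young group. Of its exon sequence, 1902 bases are shared with Septin5 (Sept5 in the annotation) on the same strand, so its counts are uncertain. Septin5 itself had 10 counts in the young group and 1 in each of the other groups.

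Pf4 encodes platelet factor 4, a chemokine stored in alpha granules (chromosome 5, 90772435 to 90773383). It was at 144, 235 and 84.4 CPM in young libraries and at 55.5, 409 and 439 in aged ones. Aged 1 was below every young library and the other aged libraries above them, and the log2 change was 0.96 ± 0.93 (SE; edgeR adjusted p = 0.649). Rab27b encodes a small GTPase that brings granules to the membrane for release (chromosome 18, 69979131 to 70141605). It was at 115, 77.0 and 34.2 CPM in young and at 31.6, 42.4 and 67.2 in aged libraries. The groups overlapped, and the change was -0.68 ± 0.48 on the log2 scale (SE; edgeR adjusted p = 0.499).

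The 3 transcription factor genes did not move together with age. Gata1, for the factor that drives megakaryocyte and erythroid genes (chromosome X, 7959260 to 7978071), was at 23.4, 16.1 and 18.3 CPM in young libraries. Aged libraries had 0.519, 15.6 and 9.22. All aged values lay below the young ones, aged 2 close to young 2 and aged 1 far lower. The log2 change was -1.19 ± 1.40 (SE; edgeR adjusted p = 0.721), and -0.56 without aged 1. Nfe2, for the large subunit of NF-E2 (chromosome 15, 103248212 to 103258403), was at 292, 270 and 99.8 CPM in young and at 210, 152 and 316 in aged libraries. Its log2 change was 0.03 with a 95% interval of -0.99 to 1.06 (edgeR adjusted p = 0.983). Fli1, an ETS factor gene (chromosome 9, 32422204 to 32542861), was at 163, 123 and 85.3 CPM in young and at 115, 157 and 103 in aged libraries. Its log2 change was 0.01 with a 95% interval of -0.89 to 0.92 (edgeR adjusted p = 0.9902). These intervals leave room for a change of nearly 1 in either direction on the log2 scale, and the sign for Nfe2 and Fli1 turned under DESeq2's size factors.

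**Figure D3:**
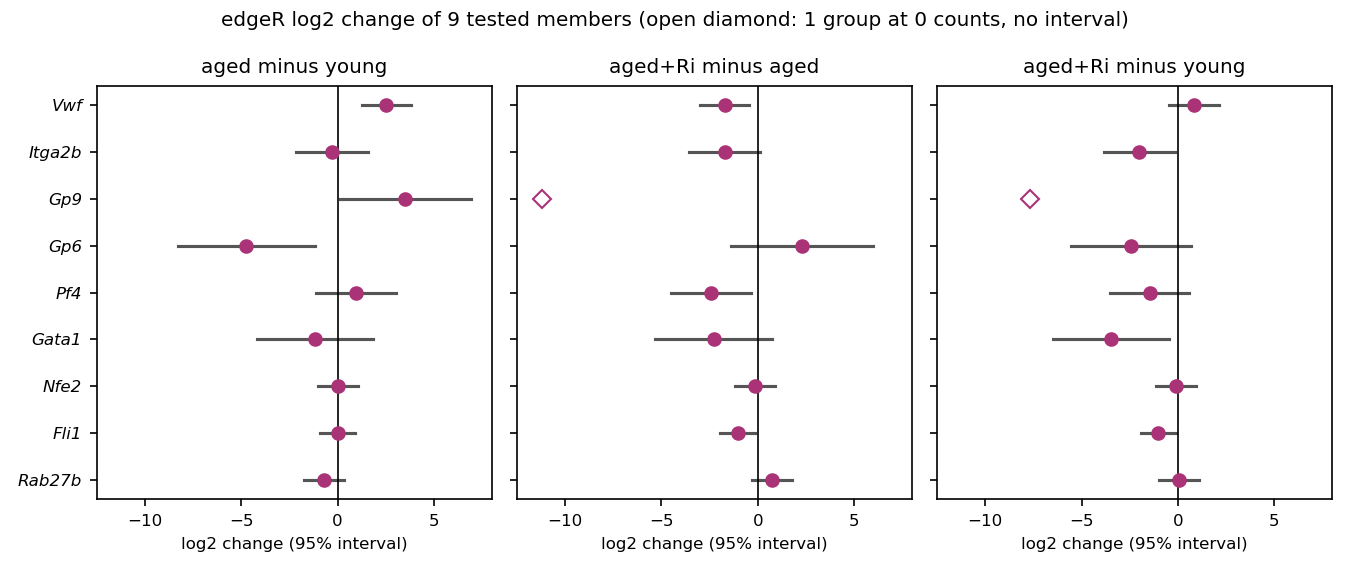
Log2 change of the 9 tested genes in 3 comparisons with 95% intervals from edgeR; open diamonds are fitted values of Gp9 where aged+Ri has 0 counts and no interval exists. For aged minus young, the interval of Vwf runs from 1.27 to 3.82, while those of Nfe2 and Fli1 lie on both sides of 0.

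Between aged+Ri and aged cells, Vwf, Itga2b, Gp9 and Fli1 were lower in every inhibitor-treated library than in every untreated aged one. Pf4 and Gata1 had lower means with the inhibitor, with overlapping libraries. Nfe2 had similar levels in both groups, and Rab27b had a higher mean with the inhibitor. By edgeR 0 of the 9 genes passed after adjustment, and 0% of all genes did. At an unadjusted p under 0.05, 0 of 9 were higher (4.24% of all genes) and 4 were lower (Vwf, Gp9, Pf4 and Fli1; 4.89% of all genes). Groups did not overlap for 0 higher (7.85% of all genes) and 4 lower genes (8.66%). The log2 change was above 0 for 2 of the 9 (47.2% of all genes) and below 0 for 7 (52.8%), with a median of -1.70 over the 9 genes and -0.06 over all genes. DESeq2 called 1 of 8 (Gp9) and 2.29% of all genes, and limma-voom called 1 of 9 (Gp9) and 0.364%. This comparison shares the aged libraries with the one before, so both rest on the same aged values.

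Vwf was at 17.4, 68.2 and 27.5 CPM in aged+Ri libraries, all below the aged minimum of 75.3. The log2 change was -1.70 ± 0.59 (SE; 95% interval -2.98 to -0.43; edgeR adjusted p = 0.434). Within batch 1 it was -3.34 and within batch 2 it was -1.42, and without aged+Ri 2 it was -2.43. Itga2b was at 1.54, 5.61 and 1.61 CPM, and the change was -1.72 ± 0.86 on the log2 scale (SE; edgeR adjusted p = 0.595). Aged+Ri 2 again stood closest to the aged libraries, and without it the change was -2.62. Gp9 had no count in any aged+Ri library against 1129 in the aged group, at least 253-fold lower with the floor of 3 counts set over the group (edgeR adjusted p = 0.276). Aged 3 held 929 of these counts, and without it the bound was 66.9-fold (0 against 200 counts), in a range of 66.9 to 376 with a library of either group left out. Its adjusted p was 1.67e-05 with DESeq2 and 0.0101 with limma-voom, within a range of 1.67e-05 to 0.708 over the alternatives. Gp6 had 7 counts with the inhibitor and 2 without it, 5.20 times higher after scaling, with a 95% counting interval of 0.9897 to 51.3. Most of its signal was in aged+Ri 1 (0.178 CPM, against 0.00294 and 0.0322 in the others), and the log2 change of 2.29 became 0.13 without that library and -0.15 within batch 2. Gp1bb had 11 counts, all in aged+Ri 2.

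Pf4 was at 5.28, 107 and 55.8 CPM in aged+Ri libraries, and aged 1 lay inside that range. For Pf4 the log2 change was -2.43 ± 0.93 (SE; 95% interval -4.49 to -0.36; edgeR adjusted p = 0.494), and -3.29 without aged+Ri 2. Rab27b was at 64.9, 112 and 60.1 CPM, and the change was 0.75 ± 0.48 on the log2 scale (SE; edgeR adjusted p = 0.6998). Gata1 was at 0.0561, 5.01 and 0.0847 CPM, so that aged+Ri 2 alone carried most of the signal, and the change was -2.29 ± 1.40 on the log2 scale (SE; edgeR adjusted p = 0.696). Without aged+Ri 2 it was -6.89. Nfe2 was at 92.8, 305 and 222 CPM, with a log2 change of -0.13 (95% interval -1.16 to 0.90; edgeR adjusted p = 0.982). Fli1 was at 28.4, 87.1 and 68.6 CPM, all under the aged minimum of 103. Its log2 change was -1.03 ± 0.42 (SE; 95% interval -1.94 to -0.12; edgeR adjusted p = 0.492), and -0.69 without aged+Ri 1. For 6 of the 9 tested genes, Vwf, Itga2b, Pf4, Gata1, Nfe2 and Fli1, the aged+Ri 2 library had the highest value of its group and aged+Ri 1 the lowest.

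Against young cells, aged+Ri cells had lower Itga2b, Gp9, Gp6 and Gata1 in every library. These groups differ in age, in the inhibitor and, by Ddx3y, in the sex of some libraries. Vwf had a mean of 37.7 ± 26.9 CPM in aged+Ri and 21.0 ± 14.7 in young cells (SD, n = 3 each), and the groups overlapped. By edgeR 0 of 9 genes passed, against 1.45% of all genes (0.959% higher and 0.489% lower). At an unadjusted p under 0.05, 0 were higher (9.06% of all genes) and 4 were lower (Itga2b, Gp9, Gata1 and Fli1; 14.4% of all genes). Groups did not overlap for 0 higher (12.4% of all genes) and 4 lower genes (19.9%). The log2 change was above 0 for 2 of the 9 (42.6% of all genes) and below 0 for 7 (57.4%), with a median of -1.46 over the 9 genes and -0.24 over all genes. DESeq2 called 2 of 8 (Itga2b and Gp9) and 13.4% of all genes, and limma-voom called 1 of 9 (Gata1) and 4.26%. Gp9 was at least 21.9-fold lower (0 against 63 counts; edgeR adjusted p = 0.0987), and at least 6.61-fold without young 2, which held 50 of the 63. The log2 change of Gata1 was -3.48 ± 1.40 (SE; edgeR adjusted p = 0.196), that of Itga2b -1.99 ± 0.86 (edgeR adjusted p = 0.201) and that of Fli1 -1.01 ± 0.42 (edgeR adjusted p = 0.177). That of Vwf was 0.84 ± 0.59 (edgeR adjusted p = 0.414), with 0.20 within batch 2, 1.60 without young 2 and 0.07 without aged+Ri 2. Without aged+Ri 2, Gata1 passed (log2 -8.00, edgeR adjusted p = 0.0454).

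The other genes of the platelet and megakaryocyte programme were read from 7 lists, of which 159 genes were tested. In aged against young cells edgeR called 0 of the 159, where 0.0331% of all genes were called. At an unadjusted p under 0.05, 9 were higher (6.09% of all genes) and 12 were lower (10.1%). DESeq2 called 3 higher and 3 lower (5.35% of all genes in either direction), and limma-voom called 0 (0.119%). Groups did not overlap for 14 higher and 15 lower list genes, against 8.59% and 16.1% of all genes. Of 28 tested surface receptor genes, 15 were above 0 on the log2 scale (45.3% of all genes were). The tetraspanin gene Cd9 was at 790, 690 and 761 CPM in young and at 1477, 1758 and 1777 in aged libraries (log2 1.16 ± 0.27, edgeR adjusted p = 0.173). Selp, for the P-selectin of platelet granules, was at 13.7, 14.7 and 7.64 CPM in young and at 46.8, 28.1 and 29.7 in aged libraries (log2 1.54 ± 0.60, edgeR adjusted p = 0.254). Gfi1b, a repressor needed for megakaryocytes, was at 17.7, 62.9 and 47.5 against 177, 119 and 84.7 CPM (log2 1.57 ± 0.47, edgeR adjusted p = 0.201). These 3 genes are among the 14 with every aged library above every young one. The 15 in the other direction include Vegfa, for the vessel growth factor stored in alpha granules, at 108, 200.3 and 133 CPM in young and 83.2, 60.2 and 37.7 in aged libraries (log2 -1.29 ± 0.40, edgeR adjusted p = 0.205). Medians of the other lists ran from -0.25 for granule release and -0.24 for thrombopoietin signalling to 0.44 for the cytoskeleton of proplatelets.

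Some genes of mature platelets had low levels. Tubb1, the platelet beta-tubulin gene, reached at most 0.142 CPM. Gp5, a partner of Gp9 in the receptor for von Willebrand factor, was at most 6.16 CPM (young 3), and Ppbp, a platelet chemokine gene, was at most 8.60 CPM (aged+Ri 2). Pf4 and Itgb3, for the beta chain that pairs with the Itga2b product, were far above these, with Itgb3 between 136.7 and 461 CPM in all 9 libraries.

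In aged+Ri against aged cells edgeR called 0 of the 159 list genes, with 6 higher and 25 lower at an unadjusted p under 0.05, and 4.24% and 4.89% of all genes. DESeq2 called 1 higher and 5 lower (2.29% of all genes in either direction), and limma-voom called 0 (0.364%). Groups did not overlap for 12 higher and 37 lower list genes, against 7.85% and 8.66% of all genes. Medians were below 0 for 6 of the 7 lists, from -0.54 for surface receptors and -0.48 for transcription factors to -0.19 for thrombopoietin signalling, and 0.01 for granule release. Gp1ba, which pairs with Gp9 and Gp1bb, was at 4.67, 1.43 and 4.10 CPM in aged libraries and at 0, 0.0518 and 0.169 in aged+Ri libraries (log2 -5.49 ± 1.34, edgeR adjusted p = 0.346). Fcer1g, for the signalling chain of the Gp6 receptor, was at 213, 438 and 490.3 against 69.2, 52.7 and 166 CPM (log2 -1.99 ± 0.47, edgeR adjusted p = 0.2795). Zfpm1, for the cofactor of GATA1, had a log2 change of -1.75 ± 0.61 and Runx1, for a partner of FLI1, one of -1.05 ± 0.42 (edgeR adjusted p = 0.434 and 0.477). Cd9 did not share this direction, since it was at 1694, 2667 and 3498 CPM in aged+Ri libraries.

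In aged+Ri against young cells, edgeR called 3 of the 159 list genes, 1 higher and 2 lower, against 1.45% of all genes. DESeq2 called 5 higher and 22 lower (13.4% of all genes in either direction), and limma-voom called 2 and 9 (4.26%). Groups did not overlap for 16 higher and 32 lower list genes, against 12.4% and 19.9% of all genes. Cd9 rose (log2 1.81 ± 0.27, edgeR adjusted p = 0.016), while Lyn, a kinase of platelet signalling, and Ikzf1, a lymphoid and megakaryocyte factor gene, fell (log2 -1.87 ± 0.37 and -1.81 ± 0.38, edgeR adjusted p = 0.0345 and 0.0418). Leaving out aged+Ri 3 ended the call of Cd9 (edgeR adjusted p = 0.0879, in a range of 2.43e-05 to 0.0879 over the alternatives). Lyn lost its call with any library but young 3 left out, and Ikzf1 with any but young 2 or young 3 left out, up to an edgeR adjusted p = 0.169 and 0.1803 without aged+Ri 1.

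**Figure D4:**
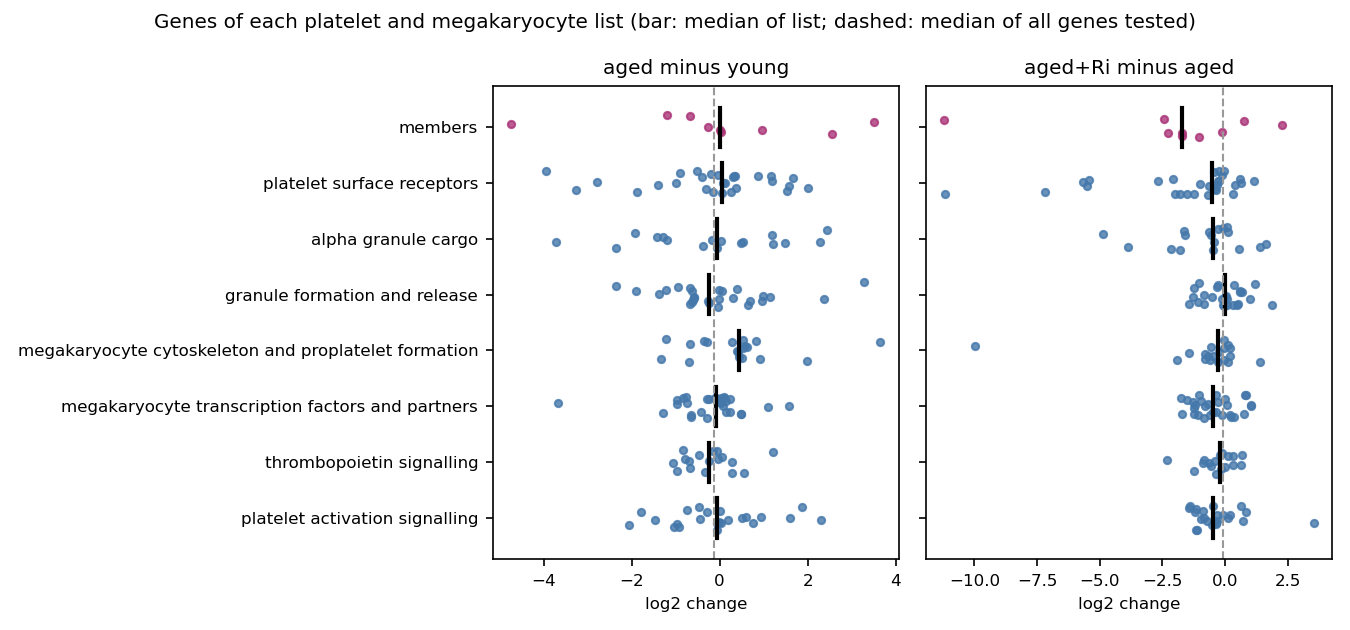
Log2 change of each tested gene in the 10-gene set (members) and in 7 lists of related genes, for aged minus young and aged+Ri minus aged; each point is a gene, the bar is the list's median and the dashed line the median of all genes tested. For aged+Ri minus aged, the median of the set is -1.70 and that of all genes -0.06.

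Markers of other cell types were read beside these values. Summed myeloid markers (18 genes) were between 1115 and 3768 CPM in young, 489 and 10506 in aged and 90.7 and 143 in aged+Ri libraries, so every aged+Ri library was below every aged one. The same held for 12 mast cell and basophil genes (163 to 408 CPM in aged, 69.1 to 136 in aged+Ri), which include Gata2 and in which Gzmb, Prss34 and Tpsb2 were at 0 in all aged+Ri libraries and Cma1 at 0 in all aged and aged+Ri libraries. Markers of mature T, NK and B cells summed to 99.3 to 758 CPM in aged and 72.3 to 137 in aged+Ri libraries. All 13 tested were below 0 on the log2 scale, 6 of them at an unadjusted p under 0.05, with a median of -3.47. Markers that the sort excludes summed to 605 to 780.0 CPM in young, 297 to 413 in aged and 202 to 343 in aged+Ri libraries. All 8 tested were below 0 with the inhibitor, with a median of -2.12. This list includes Ptprc, the CD45 gene, which is not confined to excluded cells, so its sum does not measure excluded cells alone. Aged 3, the library with most Gp9 and Gp1bb, was also highest in the myeloid sum and in the mast cell and basophil sum. Among aged libraries it was also highest in the sums of mature T, NK and B cell (758 CPM), erythroid (2849) and endothelial markers (298). It was the lowest aged library in the markers that the sort excludes (297 CPM) and in stromal (51.1) and stem cell markers (2353). The part of other cell types in the levels of Gp9, Gata1 and Itga2b was not tested. Without aged 3, the log2 change with the inhibitor was -2.001 for Vwf, -1.89 for Itga2b and -1.21 for Fli1, and Gp9 was at least 66.9-fold lower. Erythroid markers (17 genes), which share GATA1 as an activator, were at 1889 to 2849 CPM in aged and 2069 to 3045 in aged+Ri libraries and overlapped.

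Endothelial cells also make Vwf, and their summed markers (17 genes) were at 109 to 232 CPM in young, 238 to 298 in aged and 140 to 226 in aged+Ri libraries. Every aged library was above every other library in this sum, as it was for Vwf, and young and aged+Ri libraries overlapped in both. The lowest aged sum was 238 CPM and the highest young sum 232 CPM. Of the 13 endothelial genes tested, 7 were above 0 for aged against young (45.3% of all genes) and 6 below 0, with a median of 0.02. Without overlap of the groups, 2 were higher (Ramp2 and Cldn5) and 3 lower, against 8.59% and 16.1% of all genes. The endothelial cadherin gene Cdh5 was at most 2.07 CPM, in aged+Ri 2, and at most 0.1093 in aged libraries. Cldn5 was at 0.0202 to 1.21 CPM in young, 2.85 to 7.47 in aged and 1.97 to 3.73 in aged+Ri libraries. Kdr was at 16.7 to 54.2 CPM in young, 20.1 to 52.6 in aged and 0.73 to 30.6 in aged+Ri libraries. In aged libraries Egfl7 was at 48.7 to 111 and Emcn at 36.0 to 39.5 CPM, 2 genes that stem cells also express, and Ramp2 was at 29.0 to 102 CPM. Ramp2 was at most 0.344 CPM in young and at 15.8 to 35.8 in aged+Ri libraries, and it rose in aged against young cells (log2 8.23 ± 0.85, edgeR adjusted p = 0.0137). The call was lost without aged 3 (edgeR adjusted p = 0.0951) and with only the 2 groups fitted (0.145), in a range of 3.64e-19 to 0.145 over the alternatives. The part of endothelial cells in the level of Vwf was not tested. Markers of stem cells (16 genes) summed to 2158 to 3758 CPM in young, 2353 to 3185 in aged and 1549 to 2730 in aged+Ri libraries, and aged+Ri 1, lowest in 6 of the tested genes of the set, was lowest here too.

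**Figure D5:**
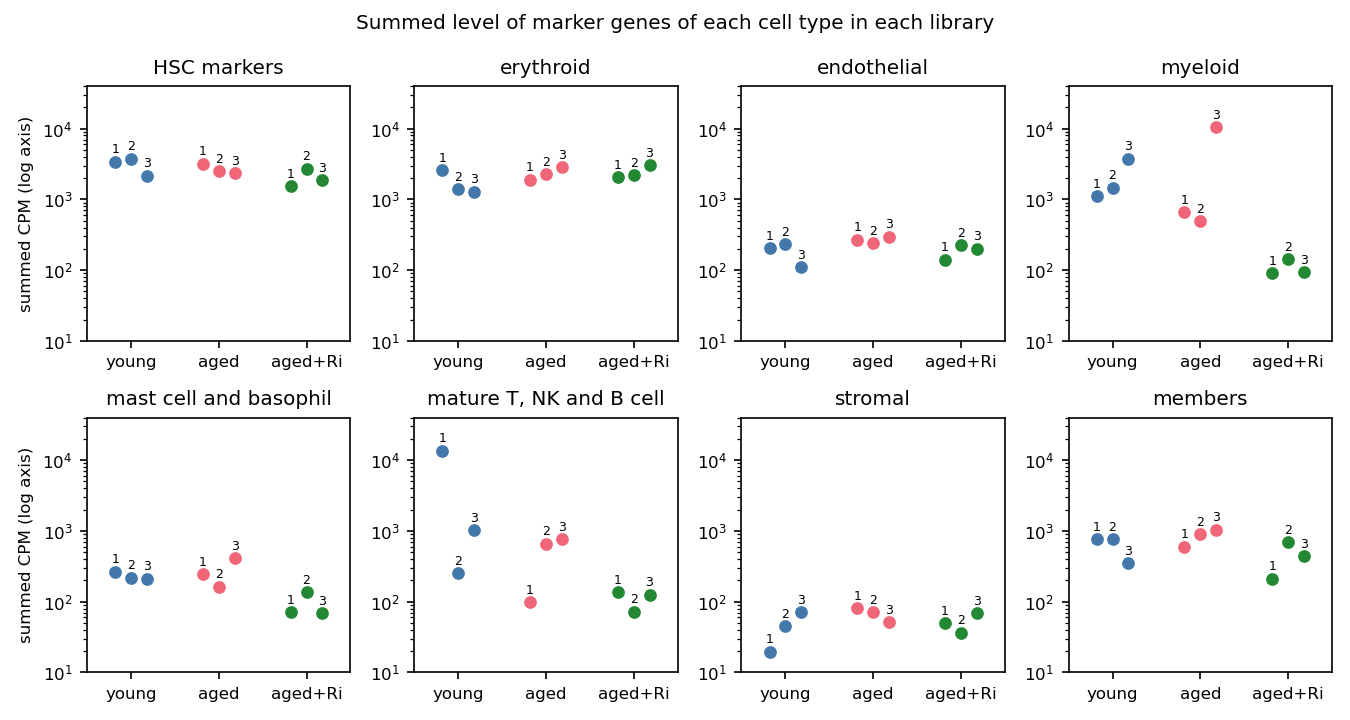
Summed normalised CPM of marker genes of 7 cell types and of the 10-gene set (members) in each library, on a log axis, with replicate numbers at the points. Myeloid markers are between 90.7 and 143 CPM in aged+Ri libraries and between 489 and 10506 in aged ones, and the mature T, NK and B cell sum of 13527 CPM belongs to young 1.

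The genes whose log2 CPM followed Vwf most closely over the 9 libraries, out of 9538 with a mean of at least 5 CPM, were Pou6f1, Aamdc and Trim47, each with a Pearson r of 0.94. For Itga2b they were Spo11, mt-Nd6 and Ankrd44 (r of 0.95 to 0.96), and for Fli1 they were Pigp, Sdhaf4 and Itgb3bp (r of 0.97 to 0.98). None belongs to the set, and with 9 libraries in 3 groups that share depth and batch these values describe likeness only.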

How the data were processed

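RNA sequencing libraries came from the SMART-Seq v4 low-input kit followed by Nextera XT, per the labels' protocols. The deposited table holds estimated counts per gene, since 71.6% to 80.9% of a library's values are whole within 0.005. The tools listed, with no roles, are featureCounts, STAR 2.7.0, cutadapt 1.18, SAMtools 1.14 and R 4.2.0, with the build GRCm38, per the submitters' processing notes. Strand use in counting is not given in the sources used here.

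Here the counts were rounded, and genes were kept by edgeR's filterByExpr (15127 genes, 9 of the 10 members). One edgeR 4.0.16 quasi-likelihood model of group means (R 4.3.3, TMM scaling, robust) was fitted to all 9 libraries. Tests were two-sided, with Benjamini-Hochberg adjustment over all genes tested and a threshold of 0.05. CPM values are TMM-normalised. A group at 0 counts was set to a floor of 3 counts over the group, and 1 to 3 counts were given an exact 95% interval of the ratio. Intervals and floors cover counting error only. The script was tested on simulated data with 200 changed genes.

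The members and lists were chosen with earlier results of these data known. Other genes named were among 17 set partners of the members, up to 3 genes per list and comparison with the smallest unadjusted p, cell markers, and the 3 genes most like Vwf, Itga2b and Fli1. Sequencing batches are unbalanced: batch 1 holds aged 1 and aged+Ri 1, batch 2 holds young 2, aged 2, aged+Ri 2 and aged+Ri 3, batch 3 holds young 3 and aged 3, and young 1 was in batches 1 and 3. No pair of libraries of a group agreed within sampling noise. Alternatives were DESeq2 1.42.0 and its size factors, library totals, limma-voom (limma 3.58.1), edgeR's newer method, no filter, a stricter filter (10 counts in every library of a group and a mean of 5 CPM there), only the compared groups, replicate and batch terms, each library left out, young 1 as the only young library, and values within batches.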

Additional observations from a re-analysis of the deposited data

How the results depend on the processing

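Of 579 values of the 9 tested genes under the alternatives, 536 kept their direction without newly passing the threshold. Another 7 newly passed it and 36 changed sign, in 8 gene comparisons. Values within batches, and those of Gp6 with DESeq2, have no adjusted p and were judged by sign alone. The count of genes called was 0 under edgeR. With DESeq2 it was 1 for aged against young (Vwf), 1 for aged+Ri against aged (Gp9) and 2 for aged+Ri against young (Itga2b and Gp9). With limma-voom it was 1 for aged+Ri against aged (Gp9) and 1 for aged+Ri against young (Gata1). Leaving out libraries gave 0 to 1 in the last comparison, the 1 being Gata1 without aged+Ri 2. The cause of these differences between settings was not tested. Genes called in the whole table ranged from 1 to 744, 0 to 318 and 18 to 1862 in the 3 comparisons. TMM against DESeq2's size factors moved the median log2 change of all genes for aged against young from -0.13 to -0.21, and no filter moved it to -0.57.

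The changes of sign were as follows. For aged against young, Itga2b was 0.15 with young 1 as the only young library, 0.44 within batch 2 and -0.62 to 0.046 with a library left out. Nfe2 was -0.043 with DESeq2 or its size factors, -0.067 with limma-voom or the stricter filter, -0.015 with only the compared groups, -0.31 with young 1 alone, -0.83 within batch 2 and -0.30 to 0.28 with a library left out. Fli1 was -0.063 with DESeq2 or its size factors, -0.062 with limma-voom, -0.087 with the stricter filter, -0.038 with a batch term, -0.32 with young 1 alone and -0.18 to 0.21 with a library left out. Rab27b was 0.97 within batch 3. For aged+Ri against aged, Gp6 was -0.15 within batch 2, and Nfe2 was 0.77 within batch 2 and -0.48 to 0.22 with a library left out. For aged+Ri against young, Nfe2 was -0.47 to 0.30 with a library left out. Rab27b was -0.0025 with DESeq2 or its size factors, -0.083 with limma-voom, -0.0549 with the stricter filter, -0.48 with young 1 alone and -0.27 to 0.40 with a library left out. Among list genes, Wipf1 was 0.15 within batch 2 for aged against young.

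Same-numbered libraries did not deviate together (correlations -0.091 to 0.111 over 9 pairs, against -0.142 to 0.15 over 18 others). Some of them nevertheless shared a sequencing batch, such as aged 1 and aged+Ri 1 in batch 1. With the replicate number as a block, 0 of the 9 genes were called in each comparison, the log2 change of Fli1 for aged against young was -0.022, and 6, 2 and 226 genes were called in the whole table. With 3 libraries a group and depths of 34358101 counts or more, Gp6 stayed under 0.6 CPM in every library, and Gp1bb had 0 to 11 counts outside aged 3.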
